A study of Homo sapiens with 22 samples.

Results

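The genes of MHC class I and of its peptide loading were followed in 2 leukemia cell lines exposed to FP54, a compound that degrades the RNA demethylase FTO. The 9 genes were chosen by their role and not by their values, and all 9 were found by symbol among the 20411 genes of each table. They are the heavy chains HLA-B, HLA-C, HLA-E and HLA-F, the light chain B2M, the transporter subunits TAP1 and TAP2, the loading factor TAPBP and the transactivator NLRC5. MOLM-13 is an acute myeloid leukemia line with the MLL-AF9 fusion, and NB4 is an acute promyelocytic leukemia line with the PML-RARA fusion. Each line was given 2 μM FP54 or its solvent DMSO over 48 hours, and 3 RNA-seq libraries were made for every treatment. FP54 is a PROTAC, a molecule with 1 end for its target and another for the ubiquitin ligase VHL, so all treated cells carry a VHL ligand that the DMSO controls lack. These 12 RNA-seq libraries were used, while 10 further samples of m6A-seq and polysome-seq were left aside.

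MHC class I molecules carry peptides from inside the cell to its surface, where cytotoxic T cells inspect them. A heavy chain pairs with β2-microglobulin in the endoplasmic reticulum, peptides enter through the TAP transporter, and tapasin bridges the transporter to the empty heavy chain. HLA-B and HLA-C are classical heavy chains, HLA-E presents signal peptides to natural killer cell receptors, and interferons together with NLRC5 drive the transcription of much of the pathway. In myeloid leukemia, surface class I is a condition for recognition by T cells. In GENCODE 44 on hg38, 7 of the 9 genes lie in the MHC region of chromosome 6, from HLA-F, which starts at 29722775, to TAPBP, which ends at 33314284. B2M is on chromosome 15 from 44711358 to 44718851, and NLRC5 on chromosome 16 from 56989485 to 57083531.

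The RNA levels below are RPKM, read counts scaled for transcript length and sequencing depth, which can be compared between genes because of the former scaling. The 2 lines were normalised in separate tables, so levels are set side by side across lines without a test. Library totals recovered from the RPKM were 16299703 to 17346912 reads (DMSO) and 5829732 to 19191055 reads (FP54) in MOLM-13, and 20654058 to 22344267 reads (DMSO) and 10595648 to 13071305 reads (FP54) in NB4. FP54 replicate 2 of MOLM-13 was the shallowest library. All 6 myeloid markers examined were above 1 RPKM in both lines, and HOXA9, MEIS1 and FLT3, 3 of 3 markers of the MLL-AF9 line, were above 1 RPKM in MOLM-13. In NB4, FLT3 was also above it, at a mean of 5.20 RPKM, while HOXA9 and MEIS1 were at 0.334 and 0.150 RPKM. Marker lists of B cells, dendritic cells, erythroid cells and fibroblasts summed to at most 1.73 RPKM in any library. FTO mRNA was at 1.01 ± 0.0767 RPKM with DMSO and 1.01 ± 0.118 RPKM with FP54 in MOLM-13, and at 2.73 ± 0.180 and 2.03 ± 0.0782 RPKM in NB4 (SD, n = 3), which does not check a loss of FTO protein.

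The promoters of the pathway carry known control elements, and 7 of the 9 genes had a start in the RefSeq promoter table (GRCh38.p14). HLA-E and NLRC5 had none in it. The 250 bases before the start are shown for the 5 genes that had both an entry and a level high enough to test in both lines, so that the members can be compared with their response to FP54. TAP1 had a second, downstream start, whose window is not shown and held no match. Sequences run 5′ to 3′ on the gene's strand. Capitals mark matches, on either strand, to 4 motifs. These are the interferon-stimulated response element (GAAA, any 2 bases, GAAA), the X2 box (TGACGC), the Y box (CCAAT) and the kappa B site (GGGA, any 4 bases, CC), and matches that touch or overlap run together.
HLA-B, chr6:31357180-31357429, minus strand: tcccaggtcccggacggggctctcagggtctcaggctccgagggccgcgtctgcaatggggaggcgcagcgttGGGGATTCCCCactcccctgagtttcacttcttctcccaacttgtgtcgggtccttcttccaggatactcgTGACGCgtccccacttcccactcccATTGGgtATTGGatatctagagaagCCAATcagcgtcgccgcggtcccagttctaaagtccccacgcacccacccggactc
HLA-C, chr6:31272093-31272342, minus strand: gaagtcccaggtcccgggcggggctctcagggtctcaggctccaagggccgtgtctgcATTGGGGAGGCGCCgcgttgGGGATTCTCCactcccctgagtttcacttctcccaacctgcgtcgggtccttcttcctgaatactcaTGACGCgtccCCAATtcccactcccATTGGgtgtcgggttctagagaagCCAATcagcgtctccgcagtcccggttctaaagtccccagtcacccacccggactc
B2M, chr15:44711267-44711516, plus strand: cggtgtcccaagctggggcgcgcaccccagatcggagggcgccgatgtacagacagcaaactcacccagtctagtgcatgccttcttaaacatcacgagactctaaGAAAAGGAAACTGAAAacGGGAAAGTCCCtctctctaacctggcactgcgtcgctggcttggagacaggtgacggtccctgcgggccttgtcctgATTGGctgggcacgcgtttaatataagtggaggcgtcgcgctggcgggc
TAP1, chr6:32853705-32853954, minus strand: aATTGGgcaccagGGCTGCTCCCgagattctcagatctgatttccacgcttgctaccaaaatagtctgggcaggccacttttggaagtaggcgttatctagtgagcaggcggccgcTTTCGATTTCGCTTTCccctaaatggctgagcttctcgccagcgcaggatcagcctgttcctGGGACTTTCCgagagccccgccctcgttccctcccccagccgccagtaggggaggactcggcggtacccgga
TAPBP, chr6:33314079-33314328, minus strand: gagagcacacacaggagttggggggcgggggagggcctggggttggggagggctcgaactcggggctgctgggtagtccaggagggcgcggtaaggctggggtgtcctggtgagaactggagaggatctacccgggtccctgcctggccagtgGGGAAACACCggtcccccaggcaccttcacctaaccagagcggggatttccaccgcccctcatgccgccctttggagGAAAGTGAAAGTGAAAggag

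HLA-B and HLA-C were 89.0% identical over this window, against 43.8 to 47.7% between either of them and B2M, TAP1 or TAPBP. Both held TGACGC, 106 bases before the start in HLA-B and 105 in HLA-C, and this motif was found in 7.67% of 35116 RefSeq windows of the same length. B2M, TAP1 and TAPBP had no match to TGACGC. They held the letters of the interferon-stimulated response element, found in 3.02% of all windows, with 2 overlapping matches in each. HLA-B and HLA-C had no match to these exact letters. The pattern is strict, so this does not show that such an element is absent from them. CCAAT was matched 3 times in HLA-B, 4 times in HLA-C and 1 time each in B2M and TAP1, and 32.0% of windows had a match. The kappa B letters were present in all 5 and in 22.6% of windows. Among the genes not shown, TAP2 held the interferon element and TGACGC, and HLA-F held the interferon element and CCAAT. The window of HLA-F was 79.8% identical to that of HLA-B and 78.2% to that of HLA-C. A match describes the letters only.

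The baseline makeup of the pathway differed in order between the lines. In NB4 with DMSO, B2M stood highest at 119 ± 13.4 RPKM, followed by HLA-B at 31.3 ± 5.22 and HLA-E at 26.1 ± 4.53 RPKM (SD, n = 3), and the ranges of the latter pair overlapped. NLRC5 came next at 5.97 ± 0.389 RPKM, above TAP1 at 4.41 ± 0.0502, HLA-C at 2.52 ± 0.478 and TAPBP at 1.61 ± 0.209 RPKM. In MOLM-13 with DMSO, B2M at 93.1 ± 11.4, HLA-B at 68.4 ± 12.05 and HLA-E at 66.5 ± 18.5 RPKM lay close together, with overlapping ranges between HLA-B and HLA-E and between HLA-E and B2M. HLA-C stood at 13.2 ± 0.897 RPKM there, TAP1 at 3.83 ± 0.551, TAPBP at 1.95 ± 0.357 and NLRC5 at 0.856 ± 0.0680 RPKM.

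**Figure D1:**
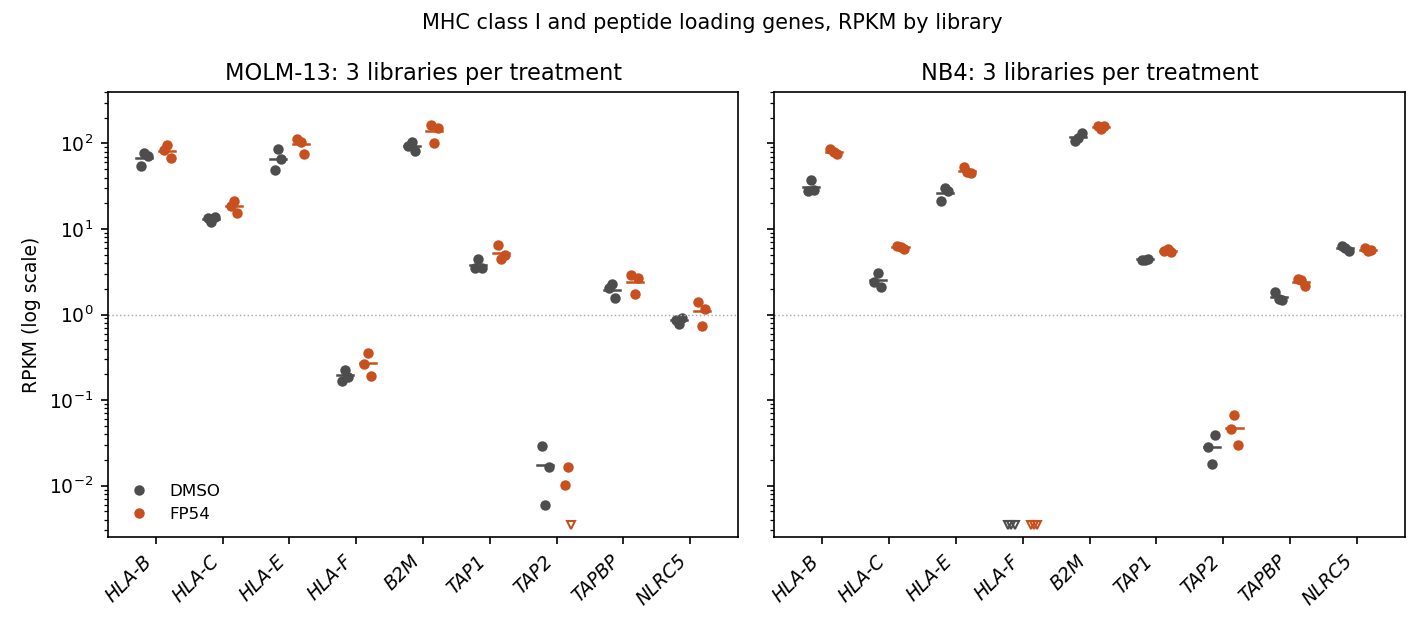
RPKM (log axis) of the 9 genes in each library of MOLM-13 (left) and NB4 (right), grey for DMSO and orange for FP54, with bars at the mean of 3 libraries. Open triangles mark libraries listed at 0, and the dotted line is the mean of 1 RPKM needed for a test. In NB4 the FP54 points of HLA-B, HLA-C and HLA-E lie above all DMSO points, while those of NLRC5 overlap them.

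In NB4, the heavy chains were higher with FP54 and had the largest log2 fold changes of the members tested. HLA-B, HLA-C and HLA-E rose 2.57-fold, 2.43-fold and 1.85-fold by the ratio of mean RPKM, and TAPBP rose 1.49-fold. B2M and TAP1 differed by less, and NLRC5 showed no detectable difference. In bulk RNA, more RNA per cell and more cells that express a gene cannot be told apart. In limma a gene was called changed when p was below 0.01 and the log2 fold change reached 0.5 either way. The study's methods give the same cutoff but used it with DESeq2 on read counts, so the calls can differ. Values here were log2(RPKM + 0.1), a scale that understates the change of low genes. Of the 7 members with a mean of at least 1 RPKM, 4 were called higher and 0 lower, where 18.6% and 10.7% of the 9853 genes tested were called higher and lower.

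HLA-B was at 28.1, 37.3 and 28.5 RPKM in DMSO replicates 1 to 3 of NB4 and at 85.9, 79.8 and 75.3 RPKM with FP54. The treatments were far apart, and the lowest FP54 library was above the highest DMSO library. The log2 fold change of HLA-B was 1.37 (standard error, SE, 0.11, adjusted p = 7.25e-06 from limma), which is a fold of 2.16 to 3.08 in its 95% interval. HLA-C, with 117 to 162 reads per DMSO library, was at 2.43, 3.03 and 2.09 RPKM with DMSO and at 6.36, 6.10 and 5.89 RPKM with FP54. All 3 FP54 libraries of HLA-C were close to each other and above the DMSO range. The FP54 libraries of NB4 were close over genes in general, so this closeness is not particular to HLA-C. Its log2 fold change was 1.26 (SE 0.14, adjusted p = 3.60e-05 from limma). HLA-E was at 21.1, 29.8 and 27.5 RPKM with DMSO and rose to 52.8, 46.7 and 45.4 RPKM, again without overlap. The log2 fold change of HLA-E was 0.90 (SE 0.13, adjusted p = 0.000216 from limma). HLA-F, the other nonclassical heavy chain among the members, had 0 reads in all 6 NB4 libraries, and 3 reads would have been 0.0311 to 0.0656 RPKM.

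B2M, the light chain, was at 108, 116 and 134 RPKM in the DMSO libraries of NB4 and at 160, 146 and 161 RPKM with FP54. The groups did not overlap, and the log2 fold change of 0.39 (SE 0.10, adjusted p = 0.00616 from limma) was under the 0.5 needed for a call. TAP1, which forms the ATP-driven peptide channel with TAP2, was at 4.38, 4.38 and 4.47 RPKM with DMSO and at 5.56, 5.84 and 5.33 RPKM with FP54. Here too every FP54 library was above every DMSO library, at a log2 fold change of 0.33 (SE 0.10, adjusted p = 0.0141 from limma). TAPBP, the gene of tapasin, was at 1.85, 1.51 and 1.47 RPKM with DMSO and at 2.57, 2.51 and 2.13 RPKM with FP54. Its log2 fold change of 0.55 (SE 0.14, adjusted p = 0.00658 from limma) was only just past the cutoff, and the call was lost under 3 alternative settings and without any 1 of 3 libraries, DMSO replicate 3 and FP54 replicates 1 and 2.

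NLRC5, the transactivator of class I promoters, was at 6.36, 5.96 and 5.58 RPKM with DMSO and at 6.05, 5.49 and 5.66 RPKM with FP54 in NB4. These ranges overlapped, and the log2 fold change was −0.06 (95% interval −0.27 to 0.16, adjusted p = 0.656 from limma). TAP2 had 4 to 9 reads per NB4 library with DMSO and 4 to 8 with FP54, too near the floor of 3 reads for a fold. In the annotation used, 19.5% of the exon bases of TAP2 also belong to other listed genes, and reads there may not have been counted. The other 8 genes shared 0% of their exon bases.

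At an adjusted p below 0.05, 6 of the 7 tested members were higher in NB4, against 29.8% of all genes, and the groups did not overlap for the same 6, against 34.3%. The median log2 fold change of the 7 was 0.55, and that of all genes tested was 0.07. This median of all genes fell to −0.13 with median-ratio scaling, under which the log2 fold changes were 1.17 for HLA-B, 0.19 for B2M, 0.14 for TAP1 and −0.25 for NLRC5. B2M and TAP1 were then no longer past the adjusted threshold (adjusted p = 0.178 and 0.258 from limma), while NLRC5 was, on the lower side (0.0445). With quantile normalization TAP1 and TAPBP were not past it (0.177 and 0.281). Every NB4 library with FP54 was shallower than every DMSO library. The mean level of 400 olfactory receptor genes, which these cells should not express, was 0.00175 to 0.00387 RPKM with DMSO and 0.0509 to 0.0544 RPKM with FP54, and with this level subtracted the log2 fold change was 1.25 for HLA-C and 0.52 for TAPBP. The summed RPKM of 4 T cell markers was 6.58 to 7.39 with DMSO and 11.1 to 11.7 with FP54, nearly all from CD3D with a mean of 8.33 RPKM. CD8A, CD3E and CD2 had means of 0.715, 0.0813 and 0.0233 RPKM. The 3 epithelial markers summed to 20.1 to 22.0 RPKM with DMSO and 22.2 to 24.3 RPKM with FP54, and the myeloid markers to 2205 to 2455 and 1228 to 1299 RPKM, mostly MPO. The part of these in the results was not tested, and HLA genes are so alike and so variable that the split of reads between HLA-B and HLA-C is uncertain.

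In MOLM-13, no member was called changed. All 6 tested members had a positive log2 fold change, from 0.27 for HLA-B to 0.57 for HLA-E, as had 50.3% of all genes. Of the 6, 0 were called in limma, against 9.3% called higher and 9.04% called lower of 9710 genes. Unadjusted p was below 0.05 for 4 of the 6, and 0 had an adjusted p below 0.05, against 9.84% of all genes on the higher side. The share of all genes at that unadjusted p was not computed. Limma-voom on the recovered reads also called 0, and placed B2M past the adjusted threshold (0.0474). The median over the 6 was 0.46, against 0.00 over all genes.

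HLA-B was at 55.0, 78.4 and 71.7 RPKM in the DMSO libraries of MOLM-13 and at 84.3, 95.1 and 68.0 RPKM with FP54, and FP54 replicate 3 lay within the DMSO range. The log2 fold change of HLA-B was 0.27 (95% interval −0.12 to 0.66, adjusted p = 0.298 from limma). HLA-C was at 13.4, 12.2 and 14.004 RPKM with DMSO and at 18.5, 21.5 and 15.3 RPKM with FP54. It was the 1 tested member whose groups did not overlap, where 20.2% of all genes were higher without overlap, and its log2 fold change was 0.46 (SE 0.16, adjusted p = 0.0631 from limma). HLA-E was at 48.4, 85.4 and 65.8 RPKM with DMSO and at 112, 105 and 76.3 RPKM with FP54. DMSO replicate 2 was above FP54 replicate 3, and the log2 fold change was 0.57 (SE 0.22, adjusted p = 0.0900 from limma). HLA-F had 12 to 16 reads per library with DMSO and 9 to 22 with FP54, at 0.168 to 0.358 RPKM, and was not tested.

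B2M was at 93.7, 104 and 81.4 RPKM with DMSO in MOLM-13 and at 165, 101 and 154 RPKM with FP54, where the shallow replicate 2 lay inside the DMSO range. The log2 fold change of B2M was 0.56 (SE 0.19, adjusted p = 0.0669 from limma), and without that library it was 0.78 (adjusted p = 0.00982 from limma). TAP1 was at 3.51, 4.47 and 3.52 RPKM with DMSO and at 6.55, 4.42 and 4.97 RPKM with FP54, and the log2 fold change came to 0.45 (SE 0.19, adjusted p = 0.120 from limma). TAPBP was at 2.03, 2.26 and 1.56 RPKM with DMSO and at 2.88, 1.73 and 2.68 RPKM with FP54, with a log2 fold change of 0.29 (adjusted p = 0.411 from limma). In both genes, as in B2M, FP54 replicate 2 was the lowest FP54 library and lay within the DMSO range. NLRC5 was at 0.869, 0.783 and 0.917 RPKM with DMSO and at 1.39, 0.734 and 1.15 RPKM with FP54. Its mean stayed under 1 RPKM, so it was not tested. TAP2 had 1 to 5 reads with DMSO and 0 to 2 with FP54, at or near the floor.

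The members called in MOLM-13 depended on single libraries. HLA-E had a log2 fold change of 0.77 and passed the cutoff without DMSO replicate 2, B2M passed it without FP54 replicate 2, and HLA-C at 0.59 and HLA-E at 0.74 passed it without FP54 replicate 3.

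**Figure D2:**
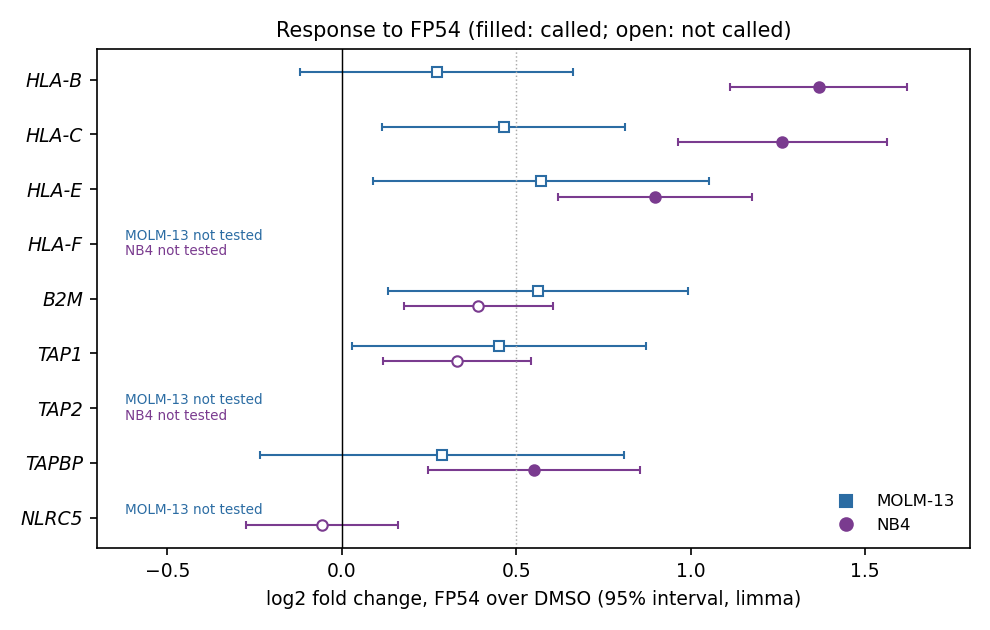
Log2 fold change of each gene with FP54 over DMSO (horizontal axis) with its 95% interval from limma, blue squares for MOLM-13 and purple circles for NB4. Filled symbols passed the cutoff and open ones did not, and the dotted line marks 0.5. The intervals of HLA-B and HLA-C in NB4 lie to the right of those in MOLM-13, and those of HLA-E, B2M, TAP1 and TAPBP overlap.

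Whether the lines responded differently was tested as the interaction of line and treatment over all 12 libraries, fitted together in limma, with each change taken within its own table. Of the 6 members tested in both lines, HLA-B and HLA-C had a higher log2 fold change in NB4 at an adjusted p below 0.05. These were 2 of 6, where 14.2% of 8849 genes passed and 10.5% passed with a higher log2 fold change in NB4. That share can include genes that fell less in NB4. The log2 fold change of HLA-B was higher in NB4 by 1.09 (SE 0.23, adjusted p = 0.00468 from limma) and that of HLA-C by 0.80 (SE 0.21, adjusted p = 0.0214 from limma). HLA-E differed by 0.33 (95% interval −0.27 to 0.92) and TAPBP by 0.27 (−0.32 to 0.85), both intervals spanning 0. B2M differed by −0.17 (−0.67 to 0.33) and TAP1 by −0.12 (−0.57 to 0.33), so a modest difference in either direction was not detectable for these. HLA-C lost its call with median-ratio scaling (adjusted p = 0.0787 from limma), quantile normalization (0.0716) and the replicate number as a block (0.0509). Without replicate 1 of every group its adjusted p was 0.217, and without replicate 3 it was 0.318 and that of HLA-B was 0.0879.

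Ratios taken within a library do not depend on its scaling. The summed RPKM of HLA-B, HLA-C, HLA-E and HLA-F over that of B2M was 0.480, 0.607 and 0.434 with DMSO in NB4 and 0.908, 0.910 and 0.785 with FP54. The heavy chains thus stood higher against the light chain in all 3 FP54 libraries, by 0.79 on the log2 scale (exact permutation p = 0.1, two-sided, the smallest that 3 libraries against 3 allow). In MOLM-13 the same ratio was 1.25, 1.69 and 1.86 with DMSO and 1.30, 2.20 and 1.04 with FP54, a difference of −0.13 (exact permutation p = 0.8) with overlapping groups. HLA-B over HLA-C was 11.6 to 13.6 with DMSO and 12.8 to 13.5 with FP54 in NB4 (log2 difference 0.07, exact permutation p = 0.5). In MOLM-13 it was 4.11 to 6.41 and 4.43 to 4.56 (−0.19, exact permutation p = 0.4). Within the summed heavy chains of NB4, HLA-B took 49.1 to 54.5% with DMSO and 59.2 to 60.2% with FP54, while HLA-E took 40.8 to 47.3% and 35.2 to 36.4%. In MOLM-13 the shares moved the other way, with HLA-B at 44.5 to 47.3% with DMSO and 39.2 to 42.9% with FP54, and HLA-E, whose groups overlapped, at 41.4 to 48.4% and 47.2 to 52.1%.

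TAP1 was also set against PSMB9, an immunoproteasome subunit whose gene starts next to it on the opposite strand. In NB4 this ratio was 1.44, 1.32 and 1.54 with DMSO and 1.06, 1.15 and 1.16 with FP54, lower in all 3 FP54 libraries by a log2 difference of −0.35 (exact permutation p = 0.1). In MOLM-13 it was 1.07 to 1.93 with DMSO and 1.02 to 1.55 with FP54 (−0.14, exact permutation p = 0.6). No ratio of TAP1 over TAP2 is read, because of the few reads of TAP2.

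**Figure D3:**
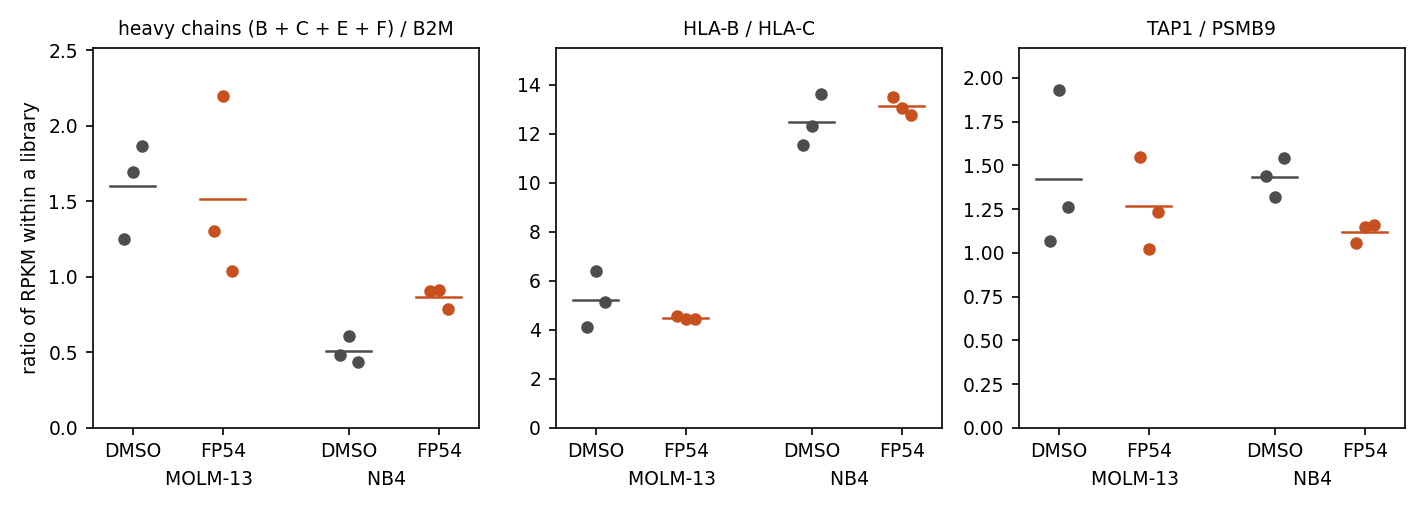
Ratios of RPKM within a library (vertical axes, from 0), grey for DMSO and orange for FP54, with bars at the mean of 3 libraries. The summed heavy chains over B2M are separated by treatment in NB4 (0.434 to 0.607 against 0.785 to 0.910) and overlap in MOLM-13, HLA-B over HLA-C overlaps in both lines, and TAP1 over PSMB9 is separated in NB4.

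Around the 9 members, 44 other genes of the pathway were examined. In NB4, 39 were tested, 11 were called higher and 1 lower, with a median log2 fold change of 0.20. SOCS1 and MARCHF9, among the 11, had DMSO means under 1 RPKM and were tested only because of their FP54 libraries. In MOLM-13, 41 were tested, 5 were called higher and 3 lower, with a median of 0.08. These MOLM-13 counts rest on single libraries, since 2 were higher without DMSO replicate 3 or without FP54 replicate 1, 6 were lower without DMSO replicate 2 or without FP54 replicate 3, and 5 were lower without FP54 replicate 2. The called share was thus 28.2% higher and 2.56% lower in NB4, against 18.6% and 10.7% of all genes, and 12.2% higher and 7.32% lower in MOLM-13, against 9.3% and 9.04%. PSMB9, JAK1, STAT2, FCGRT and SUSD6 were called higher in each line.

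The genes of the interferon and STAT route, which carries interferon signals to class I promoters, had 3 of 10 tested genes higher in NB4 and 2 of 10 in MOLM-13, and limma-voom called 4 higher in each. In limma 18.6% of all genes were called higher in NB4 and 9.3% in MOLM-13. At an unadjusted p below 0.05 in limma, 7 of the 10 were higher in NB4 and 4 in MOLM-13. The share of all genes at that p, or called by limma-voom, was not computed. Such counts therefore have no background, here or in the groups below. Neither tool called any lower in either line, and 0 were lower at that unadjusted p. The kinase JAK1 rose by 0.69 and 0.79 on the log2 scale in NB4 and MOLM-13, and STAT2, a transcription factor of that route, by 0.92 and 0.51. SOCS1, an inhibitor of JAK kinases, was called in NB4 (0.90) and stood at −0.08 in MOLM-13. Its NB4 mean was 0.893 RPKM with DMSO and 1.71 RPKM with FP54, so it reached the filter of 1 RPKM only through FP54. IRF1, an interferon-induced activator of these genes, was not called, at 0.49 in NB4 (adjusted p = 0.00270 from limma) and 0.58 in MOLM-13 (adjusted p = 0.0641 from limma).

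Among 5 immunoproteasome genes, which cut proteins into peptides for class I, PSMB9 was called higher in both lines, with log2 fold changes of 0.67 in NB4 and 0.58 in MOLM-13, where limma-voom did not call it. PSMB8, another inducible catalytic subunit, was at 0.14 in NB4 and −0.47 in MOLM-13 (adjusted p = 0.345 and 0.0441 from limma) and was not called. PSME2, a subunit of the proteasome activator PA28, fell by 0.68 in MOLM-13 and was at −0.46 in NB4, short of a call. Of 6 genes of the loading complex and of peptide trimming, TAPBPL, an editor of bound peptides related to tapasin, and ERAP1, the trimming aminopeptidase, rose in NB4 (0.59 and 0.67), and CALR, the chaperone calreticulin, fell by 0.57. In MOLM-13 limma called 0 of the 6, with an unadjusted p below 0.05 for 2, both lower, and limma-voom called 1, CALR. In limma, CALR there was at −0.53 (adjusted p = 0.0816).

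Of the factors that bind class I promoters, limma and limma-voom called 0 of 8 in NB4, with an unadjusted p below 0.05 for 1. In MOLM-13, 1 of 8 was called, RFX5, a subunit of the complex that binds the X1 box, which fell from 5.60 ± 1.79 to 2.41 ± 0.682 RPKM (log2 fold change −1.17, adjusted p = 0.0201 from limma). RFX5 in NB4 was at 18.4 ± 0.594 RPKM with DMSO and 17.1 ± 0.694 RPKM with FP54. Of 3 class I-like chains tested in NB4, those that pair with B2M as the heavy chains do included MR1, which presents vitamin metabolites and rose by 1.15 on the log2 scale, and FCGRT, the neonatal Fc receptor, which rose by 1.26. FCGRT rose by 0.72 in MOLM-13, the 1 call of 5 tested there.

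The last group holds 7 genes of class I turnover and repression. SUSD6 and TMEM127, which act with the ligase WWP2 in removing class I from the surface, rose in NB4 by 0.58 and 0.55, and SUSD6 rose by 0.67 in MOLM-13. MARCHF9, a ubiquitin ligase that takes class I from the surface, was at 0.573 ± 0.172 RPKM with DMSO and 2.32 ± 0.375 RPKM with FP54 in NB4. It thus reached the mean of 1 RPKM needed for a test only through its FP54 libraries. Its log2 fold change was 1.86, with an adjusted p of 0.000284 from limma with no filter on low values. In MOLM-13 MARCHF9 was at −0.13. EZH2, a Polycomb methyltransferase that can repress class I genes, fell by 0.72 in MOLM-13 and was at −0.22 in NB4 (adjusted p = 0.0528 from limma). With median-ratio scaling the calls over the 44 genes in NB4 came to 5 higher and 3 lower, and with quantile normalization to 6 higher and 0 lower.

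**Figure D4:**
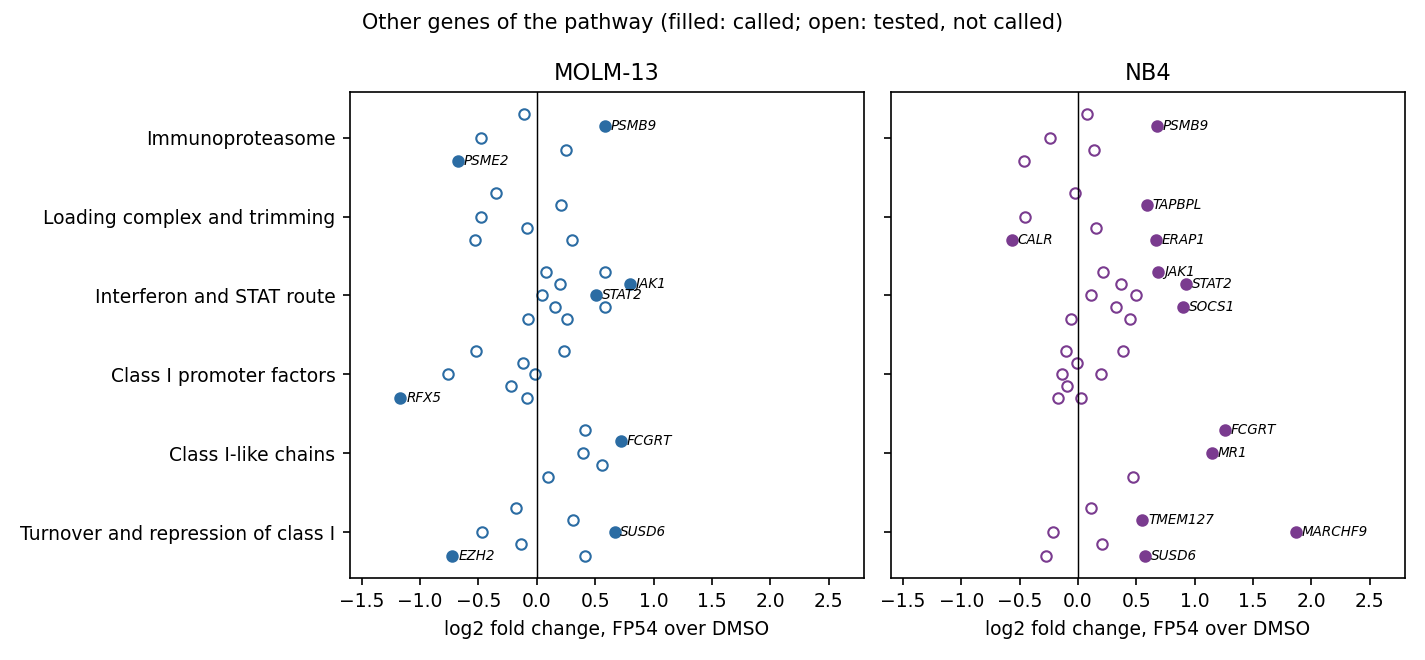
Log2 fold change with FP54 over DMSO (horizontal axis) of the tested genes among the 44 others of the pathway, in 6 groups, for MOLM-13 (left) and NB4 (right). Each point is 1 gene, filled and named where it passed the cutoff, and vertical spacing within a group only separates points. The 11 genes called higher in NB4 span 5 groups, and the group of promoter factors holds none.

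The genes whose levels most resembled the members' were sought by Pearson correlation over the 12 libraries. The profile they were set against was the mean log2 level of the 6 members tested in both lines. Each gene was centred on its mean within each line and not divided by its spread, so members with larger changes weighed more. The closest were SH3TC1 (r = 0.992), DNASE2 (0.990), NISCH (0.987), FTH1 (0.986) and NCF4 (0.984). In NB4, SH3TC1 had a mean of 0.969 RPKM with DMSO and 4.23 RPKM with FP54. It thus passed the filter of 1 RPKM there only through FP54. These genes were picked for following the profile, so their high r and their rise with FP54 are a result of that choice. The points share treatment, line and depth, and 12.8% of the 8849 genes had r of at least 0.8. Against the same profile, the members themselves had r from 0.765 for B2M to 0.936 for HLA-E. FTH1, the ferritin heavy chain, was at 370 ± 47.2 RPKM with DMSO and 1605 ± 145 RPKM with FP54 in NB4, and at 734 ± 130 and 1424 ± 209 RPKM in MOLM-13 (SD, n = 3).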

How the data were processed

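Per the study's methods, poly(A)-selected RNA was sequenced, and reads were trimmed with Cutadapt 4.8, deduplicated with Clumpify, aligned to hg38 with STAR 2.7.11b and counted on protein-coding GENCODE V42 genes with featureCounts 2.0.3. The deposited values are RPKM computed by the authors. Whether counting used the strand is not given in the sources used here, and only its name ties the NB4 table to that line.

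Log2(RPKM + 0.1) of genes with a mean of at least 1 RPKM over 6 libraries was fitted with limma 3.58.1 in R 4.3.3 (eBayes with an intensity trend), and p-values were adjusted by Benjamini-Hochberg over all genes tested. Levels and ratios were computed in Python 3.11.15. Whole reads, recovered from RPKM with GENCODE 44 exon lengths to within 0.02 reads, served for depth and limma-voom, and came out whole for all 9 members. Over values under 200 reads, 98.3 to 98.7% came out whole. The scripts were tested on simulated data. Replicates are separate libraries whose origin in separate cultures is not stated, so p-values measure only the spread between them. That spread was small in NB4 with FP54, where the chi-square per degree of freedom between pairs of libraries was 2.63 to 4.98. It was 13.9 to 40.3 in NB4 with DMSO and 16.6 to 31.8 in MOLM-13 within either treatment. This measure also depends on depth, and the reason for the difference was not tested. Named genes are the 9 members, FTO, pathway genes called in either line with PSMB8 and IRF1, and the 5 closest by correlation. The members, lists and motifs were chosen with earlier results of these data known. Alternatives were pseudocounts of 1 and 0.01, no filter or a mean of 5 RPKM, median-ratio and quantile scaling, a replicate block, no trend, other cutoffs and leaving out single libraries. A gene of the pathway list was left out and is not reported here.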

Additional observations from a re-analysis of the deposited data

Results flagged for a closer look

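The response of HLA-B to FP54 differed between the cell lines, with a log2 fold change that was 1.09 higher in NB4 than in MOLM-13. That of HLA-C was 0.80 higher in NB4. Both were singled out because the interaction of treatment and line in limma passed an adjusted p of 0.05 (0.00468 and 0.0214). HLA-B was higher in 3 of 3 NB4 libraries with FP54 than in any with DMSO, while in MOLM-13 its groups overlapped. HLA-C did not overlap between treatments in either line.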

How the results depend on the processing

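Same-numbered libraries had correlations of deviations of −0.262, −0.134 and −0.0577 in MOLM-13 and −0.143, 0.0748 and 0.123 in NB4. These values gave no sign that the replicate numbers pair the samples. Differently numbered libraries of MOLM-13 ranged from −0.461 to 0.593. Whether samples pair under other numbers cannot be told from 3 libraries per group. With the replicate block 1 member differed between the lines in place of 2, and counts of called members stayed at 0 and 4, while pathway genes called higher in MOLM-13 came to 3, as they did with a pseudocount of 1. Of 125 log2 fold changes of single members under alternatives with all libraries, 121 kept direction and side of the cutoff. In NB4, TAPBP lost its call with a pseudocount of 1 (0.38), median-ratio scaling (0.36) and quantile normalization (0.18), where B2M gained one (0.62). With a minimum mean of 5 RPKM, which leaves fewer genes tested, the counts were 2 members and 4 pathway genes higher in NB4 and 1 member that differed between the lines. With an adjusted p below 0.05 joined to a minimum log2 fold change of 1, NB4 had 2 members and 3 pathway genes higher and 0 pathway genes lower, and MOLM-13 had 0 pathway genes higher and 1 lower. Without a minimum fold change 17 pathway genes were higher and 4 lower in NB4. Median-ratio scaling gave 5 pathway genes higher and 3 lower in NB4, quantile normalization gave 6 and 0, and each left 1 member that differed between the lines. The causes were not tested.

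The difference of TAPBP between the lines turned to −0.17 with quantile normalization. The log2 difference of TAP1 over TAP2 in NB4, −0.39 on 4 to 9 reads of TAP2 per library, turned to 0.14 with 0.1 added to each RPKM, and could not be computed in MOLM-13, where TAP2 had 0 reads in 1 library. With single libraries left out, called members ranged from 0 to 2 in MOLM-13 and from 3 to 4 in NB4, pathway genes from 2 to 7 higher and 2 to 6 lower in MOLM-13, and from 11 to 12 higher and 0 to 2 lower in NB4. In MOLM-13, the higher genes came to 2 when either DMSO replicate 3 or FP54 replicate 1 was dropped, and 6 were lower without DMSO replicate 2 or FP54 replicate 3 and 5 without FP54 replicate 2. In NB4, 2 were lower without DMSO replicate 1 and 0 without DMSO replicate 2. With 1 replicate number left out of every group, from 0 to 2 members differed between the lines, and the differences ranged from −0.45 to 0.068 for B2M, from −0.39 to 0.093 for TAP1 and from −0.13 to 0.51 for TAPBP. In MOLM-13 the log2 ratio of summed heavy chains over B2M ranged from −0.44 to 0.10 and that of TAP1 over PSMB9 from −0.32 to 0.10. Subtraction of the olfactory receptor level, chosen after seeing the data, changed no count of members. The low read numbers of HLA-F and TAP2 limit what can be said of them, and the cause of these low numbers was not tested.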
